A study of Mus musculus with 16 samples.

Results

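The TGF-β and BMP pathway genes described here were 9 of the 22350 protein-coding genes annotated on mouse chromosomes 1 to 19 and X (genome build mm9). They were listed by name, with no threshold on a measured value: the ligand genes Tgfb1, Tgfb2, Tgfb3, Bmp4 and Inhba, the receptor genes Tgfbr1 and Tgfbr2, the signal transducer Smad3 and the inhibitor Smad7. Each gene was taken with its gene body and 50 kb on either side, and all ChIP-seq islands (stretches of 200 bp windows enriched over background by the island caller) that overlapped this window were collected from 16 island lists. These windows held 658 of the 479799 islands in the 16 lists, or 0.137%.

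The study asked how the SET domain protein SETD5, which associates with the NCoR-HDAC3 co-repressor, affects enhancer acetylation while 3T3-L1 preadipocytes, mouse embryo fibroblasts already determined to become fat cells, differentiate into adipocytes. Differentiation was induced with MDI, a mixture of isobutylmethylxanthine, dexamethasone and insulin. H3K27ac was measured before induction (0 h) and 48 h after it in cells transduced with an empty retrovirus and in cells transduced with a retrovirus that expresses V5-tagged SETD5 from its LTR promoter, with 2 libraries, A and B, in each of the 4 groups. SETD5-V5 was precipitated with a V5 antibody at 0 h and 6 h (2 libraries each), endogenous SETD5 at 0 h and 6 h (1 library each) and H3K4me1 at 0 h and 48 h (1 library each). The virus label of the V5 libraries reads SETD-V5 for replicate B and is blank for replicate A, as it is for the endogenous SETD5 libraries. That of the H3K4me1 libraries reads SETD-V5, while the study's text names only 3T3-L1 preadipocytes for that mark. All libraries came from this 1 cell line, and the transduced SETD5 came in addition to the cell's own. Of the SETD5-transduced lines of different expression level, the study used the moderate one unless it stated otherwise.

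The 8 H3K27ac lists held 31292 to 39949 islands covering 103.4 to 121.5 Mb, and the SETD5 lists (36604 to 39949 islands) all held more islands than the empty vector lists (31292 to 35460). The V5 lists stood further apart, with 16054 and 6666 islands in replicates A and B at 0 h and 35573 and 27220 at 6 h. The endogenous SETD5 lists were short, with 2132 islands at 0 h and 3293 at 6 h, and the H3K4me1 lists held 50276 and 49926. The cell type label was checked with marker genes: the annotated starts of 8 of 8 fibroblast or preadipocyte markers lay in an H3K27ac island in all 8 libraries. Of 7 adipocyte markers, 3 did so at 0 h in both vectors, 7 and 6 in the empty vector libraries A and B at 48 h, and 5 in each SETD5 library at 48 h. None of the 4 leukocyte, 3 endothelial, 3 muscle or 2 neuron markers was in an island of any H3K27ac library, while the epithelial marker Krt8 was in both empty vector 48 h libraries and the liver marker Apoa1 in all 4 B libraries.

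TGF-β ligands bind a pair of receptor kinases, the type II receptor encoded by Tgfbr2 and the type I receptor encoded by Tgfbr1, which phosphorylate SMAD2 and SMAD3, and these enter the nucleus with SMAD4 to regulate target genes. Activin A, a dimer of the Inhba product, signals through related receptors to the same SMADs, BMP4 signals through SMAD1, SMAD5 and SMAD9, and SMAD7 is induced by the pathway and shuts its receptors off. In the fat lineage, TGF-β and activin are known to hold back adipocyte differentiation, and BMP4 is known to commit precursor cells to it. H3K27ac marks active promoters and enhancers, and H3K4me1 marks enhancers in both primed and active states. The island lists hold no RNA or protein values, so all levels below are lengths of marked DNA.

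H3K27ac changed in length in 5 of the 9 windows between 0 h and 48 h in empty vector cells: it rose at Tgfb1, Inhba and Smad3 and fell at Tgfb3 and Bmp4. The test was limma on log2 of the covered length plus 1000 bp, fitted over the 18200 genes with an island in at least 1 of the 8 H3K27ac libraries, two-sided, with Benjamini-Hochberg adjusted p under 0.05 as the call. Among all genes tested 22.3% were higher and 12.8% lower at 48 h, so that 3 higher and 2 lower of 9 lie near the background. The median log2 change of the 9 was -0.30, beside 0.12 for all genes tested. In bulk cultures, a longer mark in each cell and a mark in more of the cells cannot be told apart. With 2 libraries against 2, an exact permutation test of a single gene cannot go below p = 0.333, so only the fit across all genes was used. For the same reason, groups said below not to overlap are described and not tested by this. The share of all genes without overlap is not given.

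**Figure D1:**
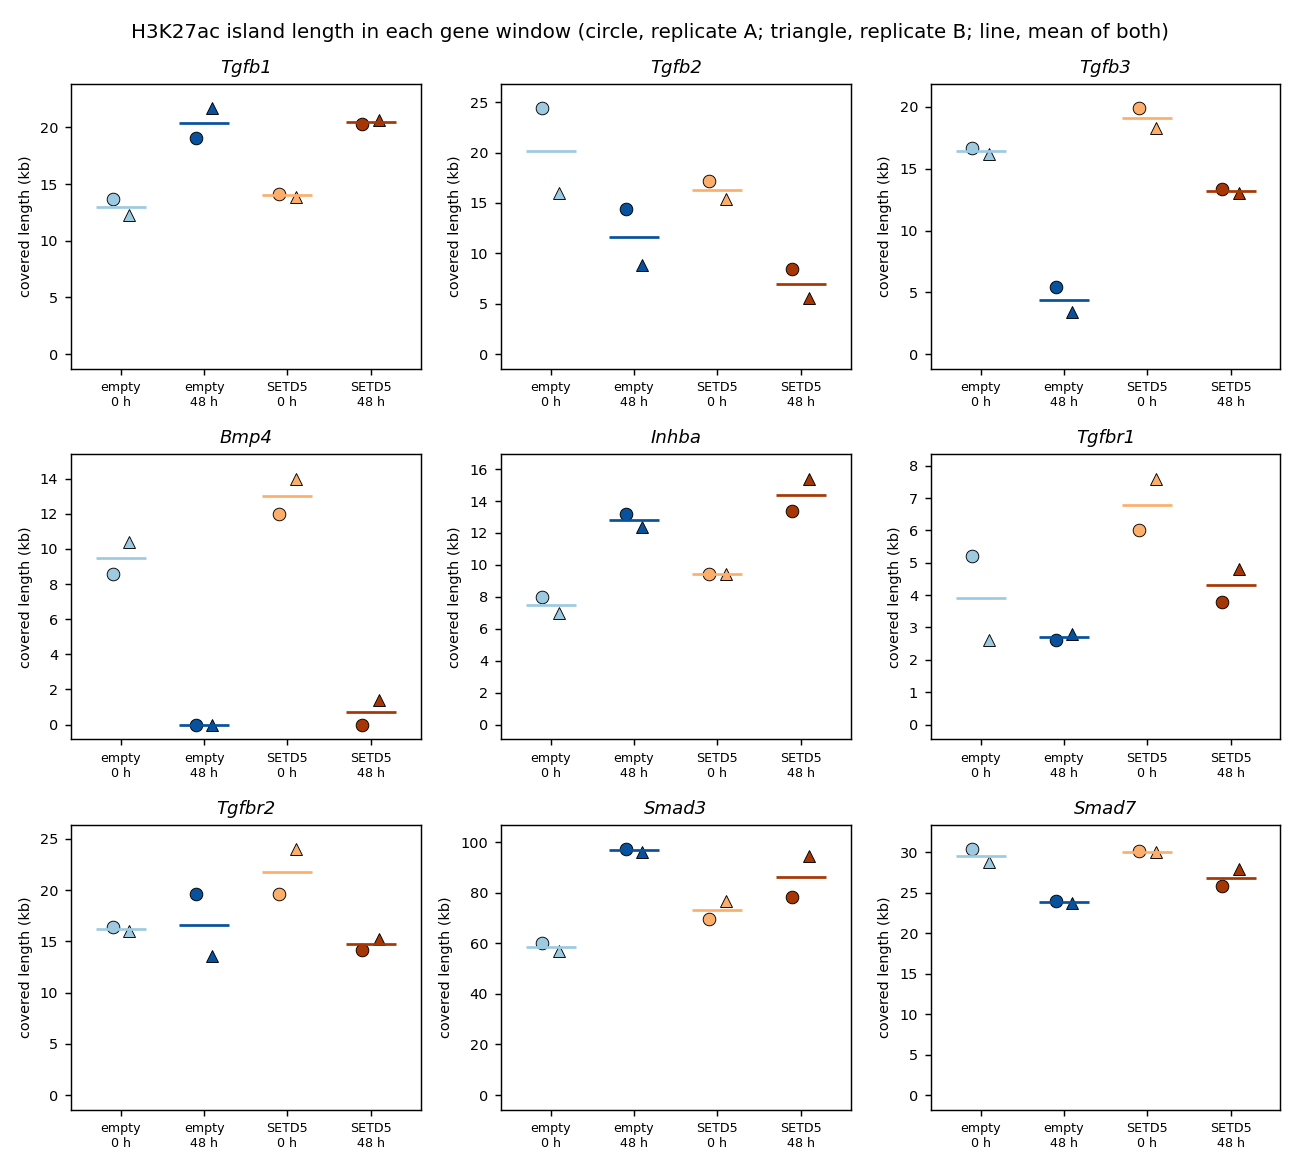
H3K27ac covered length (kb, vertical axis) in the window of each of the 9 genes, by vector and time, with each library as a point and the mean of both as a line. The 48 h points lie above the 0 h points in both vectors at Tgfb1, Inhba and Smad3, and below them at Tgfb3, Bmp4, Tgfb2 and Smad7.

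Bmp4, which encodes a BMP ligand (chr14:47003195-47010344, minus strand), lost its H3K27ac after induction. Islands covered 8.6 and 10.4 kb of its window in empty vector libraries A and B at 0 h, and its window was listed at 0 kb in both at 48 h. In SETD5 cells the lengths were 12.0 and 14.0 kb at 0 h and 0 and 1.4 kb at 48 h. The groups of the 2 times did not overlap in either vector (limma adjusted p = 0.000893 in empty vector and 0.0019 in SETD5 cells). Both calls held with no filter on islands (0.0105 and 0.0178). No fold is given for the empty vector, since its size depends on the pseudocount. The call in empty vector cells was lost when only the gene body was counted (adjusted p = 0.386) and when only islands above the median score were used (0.274).

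The Bmp4 signal was weak and distal. Its start lay in no island of any of the 16 lists, while the other 8 genes had their start in an island in all 8 H3K27ac libraries, against 47.3 to 50.1% of all genes. At 0 h, 50% and 41.6% of the islands of empty vector lists A and B scored higher than their best Bmp4 island. In SETD5 lists A and B these shares were 36.2% and 33.1%. All of the 7.4 kb that both empty vector libraries covered at 0 h was lost, in 4 stretches of at least 1 kb. The longest (chr14:46999601-47002400, 2800 bp) lay 9.3 kb downstream of the Bmp4 5′ end, at the annotated start of the neighbouring gene Gm15217. The next (chr14:46982601-46984600, 2000 bp) was intergenic, 26.7 kb downstream, with H3K27ac over all of it in both empty vector 0 h lists, over 80% in both SETD5 0 h lists and over none of it in any 48 h list.

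The central 300 bases of this intergenic stretch (chr14:46983451-46983750, plus strand, mm9) are shown because they carried the loss away from any annotated exon. Capitals in all the regions printed here mark matches, on either strand, to the AP-1 motif TGANTCA, the C/EBP motif TTGCNNAA or the SMAD motif CAGAC, none of which contains another. The SMAD palindrome GTCTAGAC was also searched and was in none of them. The Bmp4 and Tgfb3 regions were chosen after their values were seen.
Bmp4 lost region: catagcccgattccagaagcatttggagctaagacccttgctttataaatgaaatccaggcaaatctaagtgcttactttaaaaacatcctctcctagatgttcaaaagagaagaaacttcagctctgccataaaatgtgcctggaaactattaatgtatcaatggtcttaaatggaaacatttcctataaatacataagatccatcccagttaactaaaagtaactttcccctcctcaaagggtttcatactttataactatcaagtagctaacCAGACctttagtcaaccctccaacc
The region held 1 SMAD match, a motif found in 48.5% of the 13177 lost regions of the genome cut to the same length, where AP-1 was in 11.4%, C/EBP in 14.9% and the palindrome in 0.25%.

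Tgfb3, the third TGF-β ligand gene (chr12:87397694-87419991, minus strand), had a window that lost most of its H3K27ac length in empty vector cells, over a neighbouring gene. The covered length of the window was 16.7 and 16.2 kb at 0 h and 5.4 and 3.4 kb at 48 h in empty vector libraries A and B (log2 change -1.72, SE 0.188, limma adjusted p = 0.000872). In SETD5 cells it was 19.9 and 18.3 kb at 0 h and 13.4 and 13.0 kb at 48 h, a change that did not pass (log2 change -0.50, adjusted p = 0.104). At 48 h the SETD5 libraries therefore lay above the empty vector libraries without overlap (log2 difference 1.42, SE 0.188, adjusted p = 0.00775). Tgfb3 was the 1 gene of the 9 called higher and none was called lower, against 5.83% higher and 6.27% lower of all genes. The test of the difference itself, the time effect in SETD5 cells minus that in empty vector cells, gave 1.22 (SE 0.266, 95% interval 0.58 to 1.85, unadjusted p = 0.00291, adjusted p = 0.0633) and did not pass.

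The change in the Tgfb3 window did not lie in Tgfb3 itself. Its promoter island was present in all 8 H3K27ac libraries, and with the gene body alone the log2 change in empty vector cells was 0.06 (adjusted p = 0.826) and with 10 kb flanks -0.14 (adjusted p = 0.72). Of the 14.4 kb covered in both empty vector libraries at 0 h, 10.6 kb was lost, and the longest lost stretch (chr12:87348201-87357000, 8800 bp) ran over exons and introns of the neighbouring gene Ttll5, 67.4 kb downstream of the Tgfb3 5′ end. Both 0 h lists of both vectors covered 100% of this stretch, the empty vector 48 h lists 0%, and the SETD5 48 h lists 59.1% each. SETD5-V5 covered 47.7% and 0% of it at 0 h and 61.4% and 72.7% at 6 h in replicates A and B, and H3K4me1 covered 86.4% at 0 h and 59.1% at 48 h. The call at 48 h between vectors was lost without SETD5 48 h replicate A (adjusted p = 0.0628), without replicate B (0.0567), with islands above the median score (0.0706), with 10 kb flanks (0.462) and with the gene body alone (0.414), and held in the other 13 of 18 alternative settings.

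**Figure D2:**
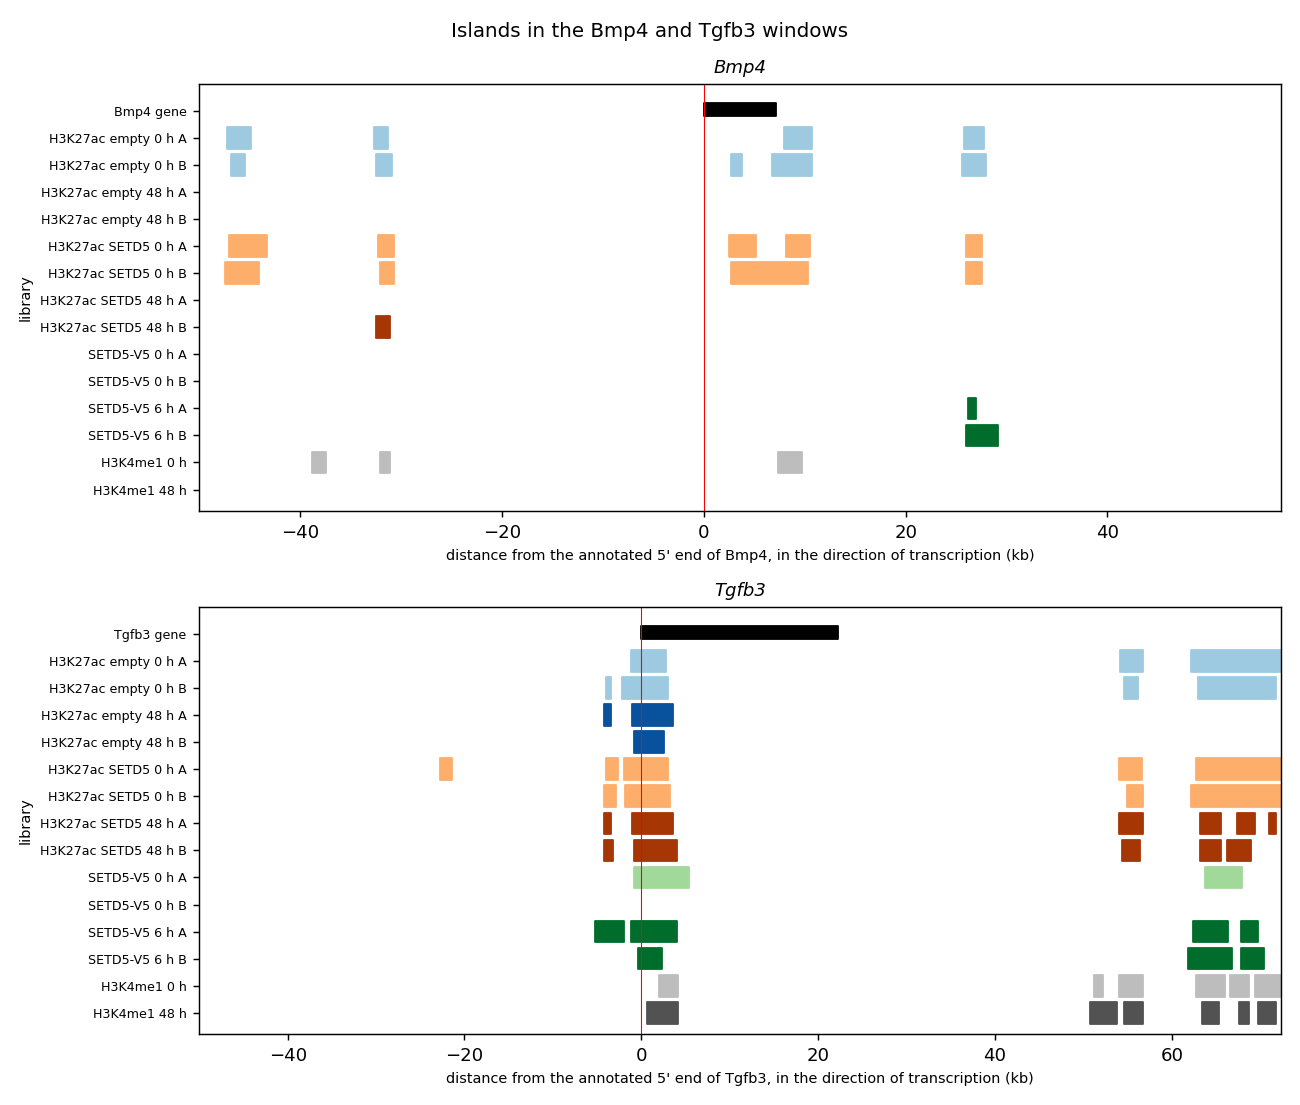
Islands (bars) of each library in the Bmp4 and Tgfb3 windows, drawn to scale against distance from the annotated 5′ end in kb, in the direction of transcription, with the gene in black. The islands downstream of Bmp4 and those over Ttll5, about 67.4 kb downstream of Tgfb3, are missing from both empty vector 48 h libraries, and part of the latter is kept in both SETD5 48 h libraries.

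Of the lost Tgfb3 window length, 5.6 kb was kept in both SETD5 48 h libraries, in 3 stretches. The one in an intron of Ttll5 (chr12:87351001-87352600, 1600 bp) is represented by its central 300 bases (chr12:87351651-87351950, plus strand), since it was lost with the empty vector and kept with SETD5.
Tgfb3 lost and kept region: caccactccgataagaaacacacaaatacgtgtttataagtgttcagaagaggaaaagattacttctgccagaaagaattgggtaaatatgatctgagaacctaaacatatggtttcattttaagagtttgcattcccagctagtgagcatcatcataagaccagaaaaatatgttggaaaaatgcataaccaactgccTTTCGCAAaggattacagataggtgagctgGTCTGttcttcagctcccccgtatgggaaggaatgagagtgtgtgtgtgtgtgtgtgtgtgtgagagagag
It held 1 C/EBP match, written here on the opposite strand of TTGCNNAA, and 1 SMAD match.

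Tgfb2, the second TGF-β ligand gene (chr1:188447065-188529871, minus strand), had less H3K27ac at 48 h in both vectors, and the change passed the test in SETD5 cells. The lengths were 24.4 and 16.0 kb at 0 h and 14.4 and 8.8 kb at 48 h in empty vector cells (log2 change -0.76, adjusted p = 0.0974, or 0.02 with the replicate letter as a block). In SETD5 cells they were 17.2 and 15.4 kb at 0 h and 8.4 and 5.6 kb at 48 h (log2 change -1.13, SE 0.301, adjusted p = 0.0357). The time groups did not overlap in either vector, and the time effects of the vectors were not shown to differ (difference -0.38, 95% interval -1.39 to 0.64, adjusted p = 0.676). The SETD5 call held in 7 of 18 alternative settings, and was lost without any 1 of the 4 SETD5 libraries or without empty vector 0 h replicate A (adjusted p = 0.0541 to 0.203). The longest lost stretch (chr1:188524401-188526600, 2200 bp) lay in the first part of the gene, in an intron 4.4 kb downstream of the 5′ end. H3K27ac covered none of it in any library of SETD5 cells at either time. SETD5-V5 covered 0% of it in both 0 h lists and 9.09% and 81.8% in 6 h lists A and B.

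Tgfb1, the first TGF-β ligand gene (chr7:26472021-26490096, plus strand), gained H3K27ac in both vectors. Its window was covered over 13.7 and 12.3 kb at 0 h and 19.1 and 21.7 kb at 48 h in empty vector cells (log2 change 0.61, SE 0.127, adjusted p = 0.0108). SETD5 cells went from 14.1 and 13.9 kb to 20.3 and 20.7 kb (log2 change 0.52, SE 0.127, adjusted p = 0.027). The difference of the time effects was -0.09 with a 95% interval of -0.52 to 0.34. The window is gene-dense, since 6 other genes start in it (B9d2, Bckdha, Ccdc97, Exosc5, Hnrnpul1 and Tmem91), so the lengths belong to the neighbourhood and not to Tgfb1 alone. The call in SETD5 cells was lost without any 1 of the 4 SETD5 libraries (adjusted p = 0.0793 to 0.0973), and that in empty vector cells with islands above the median score (0.16) or with numbers of islands (0.148).

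The longest gained stretch of the Tgfb1 window ran from its last exon past its 3′ end (chr7:26489601-26492600, 3000 bp). It was fully covered in both empty vector 48 h libraries, over 0% and 26.7% in SETD5 48 h libraries A and B, over 46.7% in both V5 6 h libraries and over 73.3% by H3K4me1 at both times. The centre of its overlap with both V5 6 h lists (chr7:26491751-26492050, plus strand, intergenic) held no searched motif. It is printed, as are the Inhba, Tgfbr2 and Smad3 regions below, because it is the longest part of the window that gained H3K27ac and carried SETD5-V5.
Tgfb1 gained region: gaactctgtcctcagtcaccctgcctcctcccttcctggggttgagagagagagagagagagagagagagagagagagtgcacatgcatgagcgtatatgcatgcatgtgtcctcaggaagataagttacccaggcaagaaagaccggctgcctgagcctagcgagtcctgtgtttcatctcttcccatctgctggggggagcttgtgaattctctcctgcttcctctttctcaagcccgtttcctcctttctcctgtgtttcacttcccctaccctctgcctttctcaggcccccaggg
Of 5393 such regions in the genome, 13.4% held AP-1, 16.1% C/EBP, 49.9% the SMAD motif and 0.352% the palindrome.

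Inhba, which encodes the subunit of activin A (chr13:16103684-16119044, plus strand), gained H3K27ac in both vectors and went from no SETD5-V5 island to islands over much of its active chromatin. H3K27ac covered 8.0 and 7.0 kb at 0 h and 13.2 and 12.4 kb at 48 h in empty vector cells (log2 change 0.70, SE 0.133, adjusted p = 0.00748). The corresponding lengths in SETD5 cells were 9.4 kb in both libraries and then 13.4 and 15.4 kb (log2 change 0.56, SE 0.133, adjusted p = 0.0236), and the difference of the time effects was -0.14 (95% interval -0.59 to 0.31). The empty vector call was lost with the gene body alone (adjusted p = 0.328) or with numbers of islands (0.225), and the SETD5 call without either SETD5 0 h library (0.0851 and 0.0811) or SETD5 48 h replicate B (0.1). SETD5-V5 was listed at 0 kb in both 0 h libraries and covered 19.8 and 14.8 kb at 6 h.

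The gain lay mainly in an intergenic stretch beyond the 3′ end of Inhba (chr13:16122401-16126200, 3800 bp), 20.6 kb downstream of its 5′ end. This stretch was free of H3K27ac in all 4 libraries at 0 h, fully covered in both empty vector libraries at 48 h, and covered over 84.2% and 94.7% in the SETD5 libraries at 48 h. SETD5-V5 covered 0% of it in both 0 h lists and 100% and 94.7% in the 6 h lists, and H3K4me1 rose from 0% to 57.9%. None of the 5.4 kb gained in the Inhba window was absent from both SETD5 libraries at 48 h, and 5.2 kb of it carried SETD5-V5 at 6 h. A relation between these values was not tested. The central part (chr13:16124051-16124350, plus strand) held none of the searched motifs.
Inhba gained region: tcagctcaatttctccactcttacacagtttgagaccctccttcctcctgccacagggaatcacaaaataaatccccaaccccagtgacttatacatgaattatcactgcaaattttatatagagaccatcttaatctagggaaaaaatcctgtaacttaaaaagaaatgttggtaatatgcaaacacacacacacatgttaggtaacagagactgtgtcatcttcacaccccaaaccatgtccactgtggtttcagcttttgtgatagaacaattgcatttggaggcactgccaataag

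Tgfbr1, the type I receptor gene (chr4:47366094-47427803, plus strand), had little H3K27ac and no called change. Islands covered 5.2 and 2.6 kb at 0 h and 2.6 and 2.8 kb at 48 h in empty vector cells (log2 change -0.35, adjusted p = 0.352), and 6.0 and 7.6 kb and then 3.8 and 4.8 kb in SETD5 cells. At 0 h the SETD5 libraries lay above the empty vector libraries (log2 difference 0.72, unadjusted p = 0.0327, adjusted p = 0.273), which did not pass. No stretch of at least 1 kb was gained or lost in both replicates. SETD5-V5 covered 9.4 and 0 kb at 0 h and 30.8 and 13.4 kb at 6 h, and its longest stretch common to both 6 h libraries (chr4:47372801-47377200, 4400 bp, within the gene) held no H3K27ac in any of the 8 libraries. H3K4me1 covered 4.2 kb at 0 h and 19.2 kb at 48 h, in 1 library each.

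Tgfbr2, the type II receptor gene (chr9:115993415-116084383, minus strand), showed no called change in total length, with stretches gained and lost within the gene. The lengths were 16.4 and 16.0 kb at 0 h and 19.6 and 13.6 kb at 48 h in empty vector cells (log2 change 0.01, adjusted p = 0.99), and 19.6 and 24 kb and then 14.2 and 15.2 kb in SETD5 cells (log2 change -0.53, adjusted p = 0.0943). In the empty vector libraries 4.6 kb was gained and 4.2 kb lost, the longest lost stretch (chr9:116007801-116010200, 2400 bp) in an intron 75.4 kb from the 5′ end. The gained stretch (chr9:116077801-116082000, 4200 bp) lay in the intron next to the promoter, 4.5 kb from the 5′ end, and was covered over 33.3% in each SETD5 48 h library.

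SETD5-V5 at 6 h covered 61.9% and 38.1% of this gained stretch. The 300 bases at the centre of the common part (chr9:116081051-116081350, plus strand, intron) held 2 SMAD matches.
Tgfbr2 gained region: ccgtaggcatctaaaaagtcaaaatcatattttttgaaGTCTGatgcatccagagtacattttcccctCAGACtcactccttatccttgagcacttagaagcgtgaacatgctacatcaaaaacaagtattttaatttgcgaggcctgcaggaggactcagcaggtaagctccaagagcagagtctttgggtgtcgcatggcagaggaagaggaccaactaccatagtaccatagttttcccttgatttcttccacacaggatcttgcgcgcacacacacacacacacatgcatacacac

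Smad3, the receptor-activated SMAD of the TGF-β branch (chr9:63494574-63605801, minus strand), carried the longest H3K27ac of the 9 windows and gained more length than any other of them. In empty vector cells 60.0 and 57.0 kb were covered at 0 h and 97.2 and 96.2 kb at 48 h (log2 change 0.72, SE 0.139, adjusted p = 0.00821). In SETD5 cells the lengths were 69.8 and 76.6 kb at 0 h and 78.4 and 94.4 kb at 48 h (log2 change 0.23, adjusted p = 0.284). The time groups did not overlap in either vector, but the spread of the SETD5 48 h libraries (86.4 ± 11.3 kb, SD, n = 2) was wide. The difference of the time effects was -0.48 (95% interval -0.95 to -0.02, unadjusted p = 0.0446, adjusted p = 0.245) and did not pass. The call in empty vector cells held in 17 of 18 alternative settings and was lost with numbers of islands (adjusted p = 0.201), which were 16 and 14 at 0 h and 18 in both libraries at 48 h.

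The 20.8 kb gained at Smad3 was spread over 9 stretches of at least 1 kb, 8 of them in the gene. The longest (chr9:63582201-63585400, 3200 bp, intron, 22.0 kb from the 5′ end) was covered over 87.5% and 75% in SETD5 48 h libraries. The intergenic one, 30.2 kb upstream (chr9:63634801-63637200, 2400 bp), was absent from both SETD5 48 h libraries and fully covered by H3K4me1 at both times. In all, 4.4 kb of the gain was absent from both SETD5 48 h libraries and 11.8 kb was present in both. H3K4me1 covered 91.8 kb at 0 h, more than H3K27ac at that time, and 87.6 kb at 48 h, and 10.0 kb of the gained H3K27ac had H3K4me1 before induction. The centre of the longest gained part with SETD5-V5 at 6 h (chr9:63562451-63562750, plus strand, intron) held no searched motif.
Smad3 gained region: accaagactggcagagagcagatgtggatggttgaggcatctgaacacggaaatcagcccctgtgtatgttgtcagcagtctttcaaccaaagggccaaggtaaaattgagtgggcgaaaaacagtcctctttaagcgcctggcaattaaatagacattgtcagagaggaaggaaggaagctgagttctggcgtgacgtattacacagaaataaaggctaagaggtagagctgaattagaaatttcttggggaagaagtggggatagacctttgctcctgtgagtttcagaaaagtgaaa

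**Figure D3:**
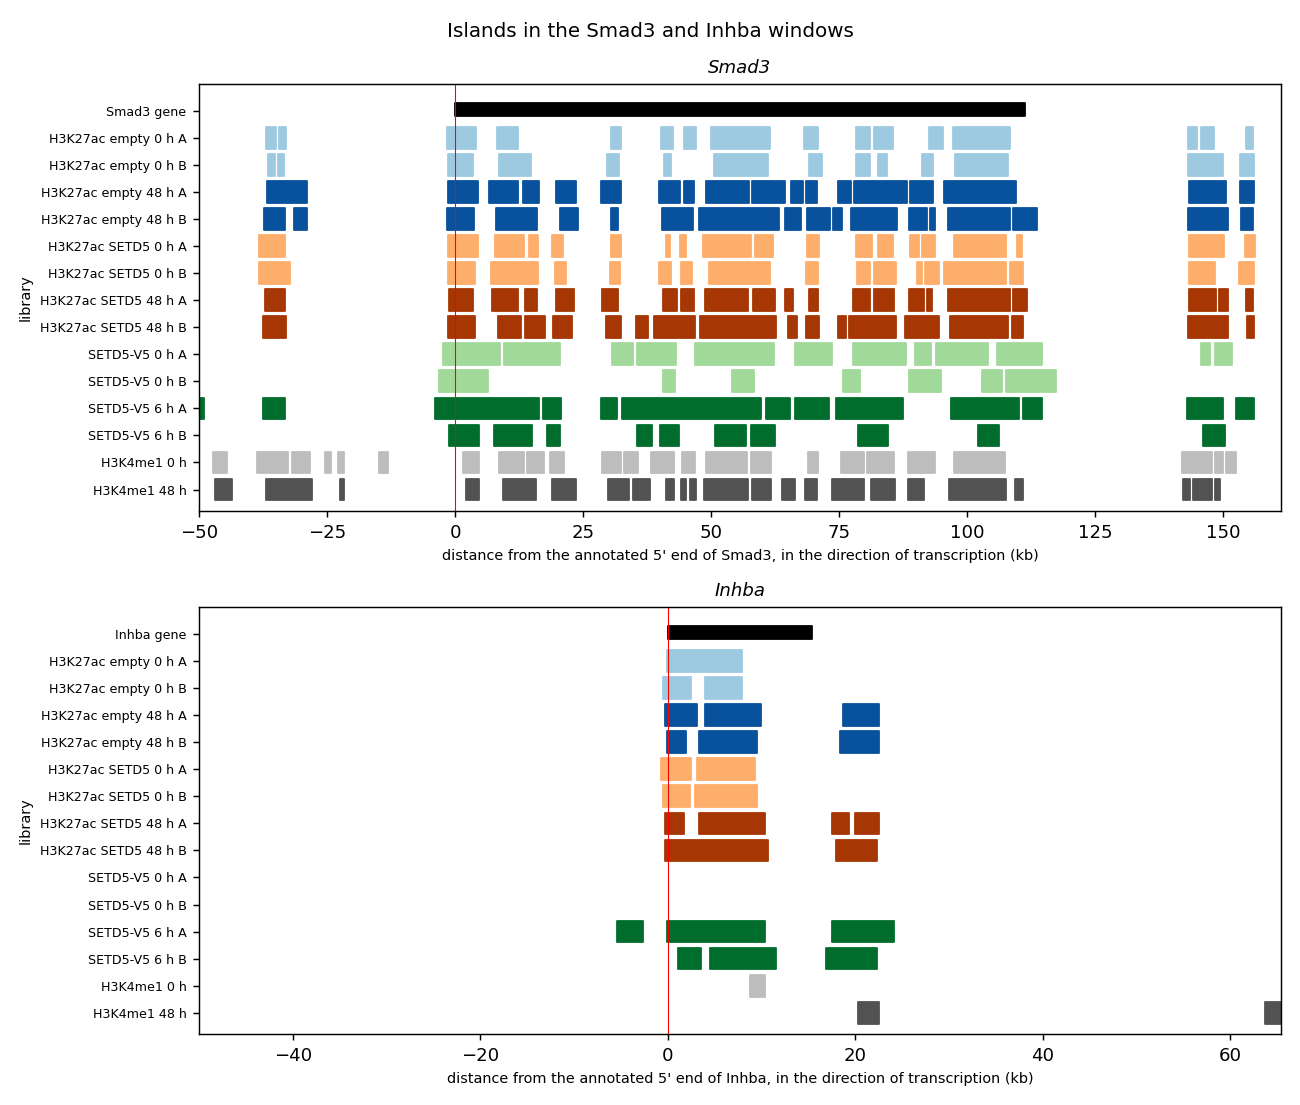
Islands (bars) of each library in the Smad3 and Inhba windows, drawn to scale against distance from the annotated 5′ end in kb, in the direction of transcription, with the gene in black. The 48 h islands of Smad3 fill gaps left at 0 h along the whole gene, and Inhba has a stretch about 20.6 kb downstream that appears at 48 h in H3K27ac of both vectors and at 6 h in SETD5-V5.

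Smad7, the inhibitory SMAD (chr18:75527183-75555589, plus strand), had H3K27ac islands ranked high in their lists at both times and the highest-ranked SETD5-V5 island of the 9 windows. H3K27ac covered 30.4 and 28.8 kb at 0 h and 24 and 23.8 kb at 48 h in empty vector cells (log2 change -0.30, adjusted p = 0.0955), and 30.2 and 30.0 kb and then 25.8 and 28.0 kb in SETD5 cells. The time groups did not overlap in either vector, and neither change passed. No stretch of at least 1 kb was gained or lost in both replicates. Above its best H3K27ac island ranked 2.43% and 2.84% of the islands of empty vector lists A and B at 0 h and 4.97% and 7.9% at 48 h. In these 48 h lists the best islands of Tgfbr2 (2.82% and 2.92%) and Tgfb1 (4.77% and 5.56%) ranked higher. That of Smad3 did so in list B (4.34%) and not in list A (7.45%), and those of the other windows did not.

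SETD5-V5 covered 26.4 and 8.8 kb of the Smad7 window at 0 h and 52.8 and 47.0 kb at 6 h. Both 6 h lists shared a single stretch of 39600 bp across the whole gene (chr18:75522001-75561600), and the islands that contained it were exceeded by 0.295% and 0.551% of the islands of their lists. Smad7 was also the 1 gene of the 9 with endogenous SETD5: 2 islands covered 13.4 kb at 6 h, 1 of them over its start, and none of the 9 windows had an island at 0 h. Across the genome 7% of gene starts lay in an endogenous SETD5 island at 6 h and 2.31% at 0 h, each from 1 library, with no replicate check.

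**Figure D4:**
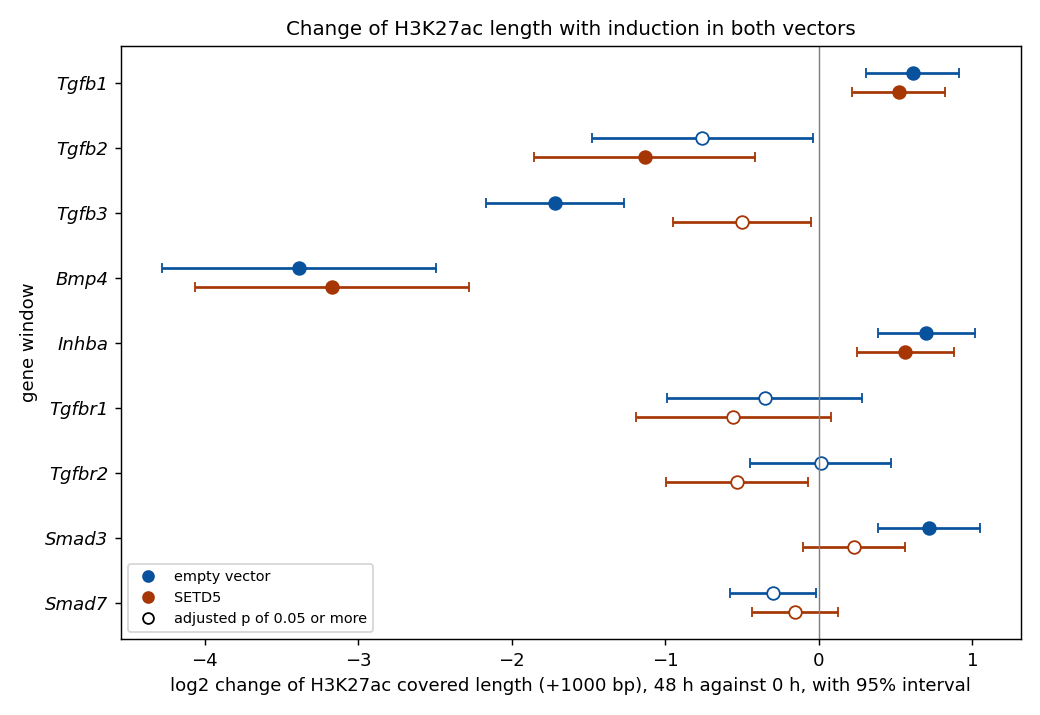
Log2 change of H3K27ac covered length (plus 1000 bp) between 0 h and 48 h for each of the 9 gene windows (rows), with 95% interval, in empty vector and SETD5 cells. Filled points passed at an adjusted p under 0.05: Tgfb1, Tgfb3, Bmp4, Inhba and Smad3 in empty vector, and Tgfb1, Tgfb2, Bmp4 and Inhba in SETD5 cells.

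In SETD5 cells 4 of the 9 windows were called between 0 h and 48 h, with Tgfb1 and Inhba higher and Tgfb2 and Bmp4 lower, against 13.6% higher and 11% lower among all genes, and the median log2 change of the 9 was -0.50 beside 0.00. Bmp4 was called in all 18 alternative settings, Inhba in 12 and Tgfb1 in 9. Before induction no window was called between SETD5 and empty vector cells (limma), against 1.25% higher and 0.802% lower of all genes. At an unadjusted p under 0.05 it was 1 of 9, that of Tgfbr1, against 14.9% of all genes. No window was called for the difference of the time effects between the vectors (limma), against 1.51% higher and 1.99% lower. At an unadjusted p under 0.05 it was 2 of 9, those of Tgfb3 and Smad3, against 19.2% of all genes, so that count lies near the background. The share of calls in each direction between vectors moved with the setting, and the cause was not tested. Of all genes called at 48 h, 48.2% were higher with SETD5, but 30.8% when each list was cut to the same number of islands, 75.9% with numbers of islands and 66.2% without SETD5 48 h replicate A. At 0 h 61% were higher, but 40.2% with equal numbers of islands, 76.2% with numbers of islands and 75.8% with islands above the median score.

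SETD5-V5 covered more of each of the 9 windows at 6 h than at 0 h when libraries of the same letter were compared. None of the windows with a SETD5-V5 island at 0 h passed the test (limma). It is not known whether the letters pair the libraries. Across letters the times overlapped at Smad3 (93.8 kb in 0 h library A against 47.2 kb in 6 h library B) and Tgfb1 (7.2 against 4.6 kb). They met at Tgfb3 (10.4 kb in both). Of all 16393 genes tested with limma, 0% were called higher and 0% lower, with 4541 (27.7%) at an unadjusted p under 0.05, and the median log2 change was 1.63, so the lists as a whole rose. That median was 0.90 after scaling to total covered length and 0.64 with equal numbers of islands. Inhba, Tgfb2 and Bmp4 were listed at 0 kb in both 0 h libraries and entered this fit through the 6 h libraries alone, so no test is given for them. Smad3 had the smallest log2 change of the 9, from 93.8 and 39.6 kb to 111.2 and 47.2 kb (log2 change 0.25, adjusted p = 0.818), and carried SETD5-V5 in both libraries before induction. The starts of 6 and 2 of the 9 genes lay in a SETD5-V5 island at 0 h in replicates A and B (20% and 6.92% of all genes) and of 8 and 7 at 6 h (42.2% and 24.9%). Replicate A exceeded replicate B in 8 of 9 windows at 6 h, and all but Bmp4 had their start covered in A.

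**Figure D5:**
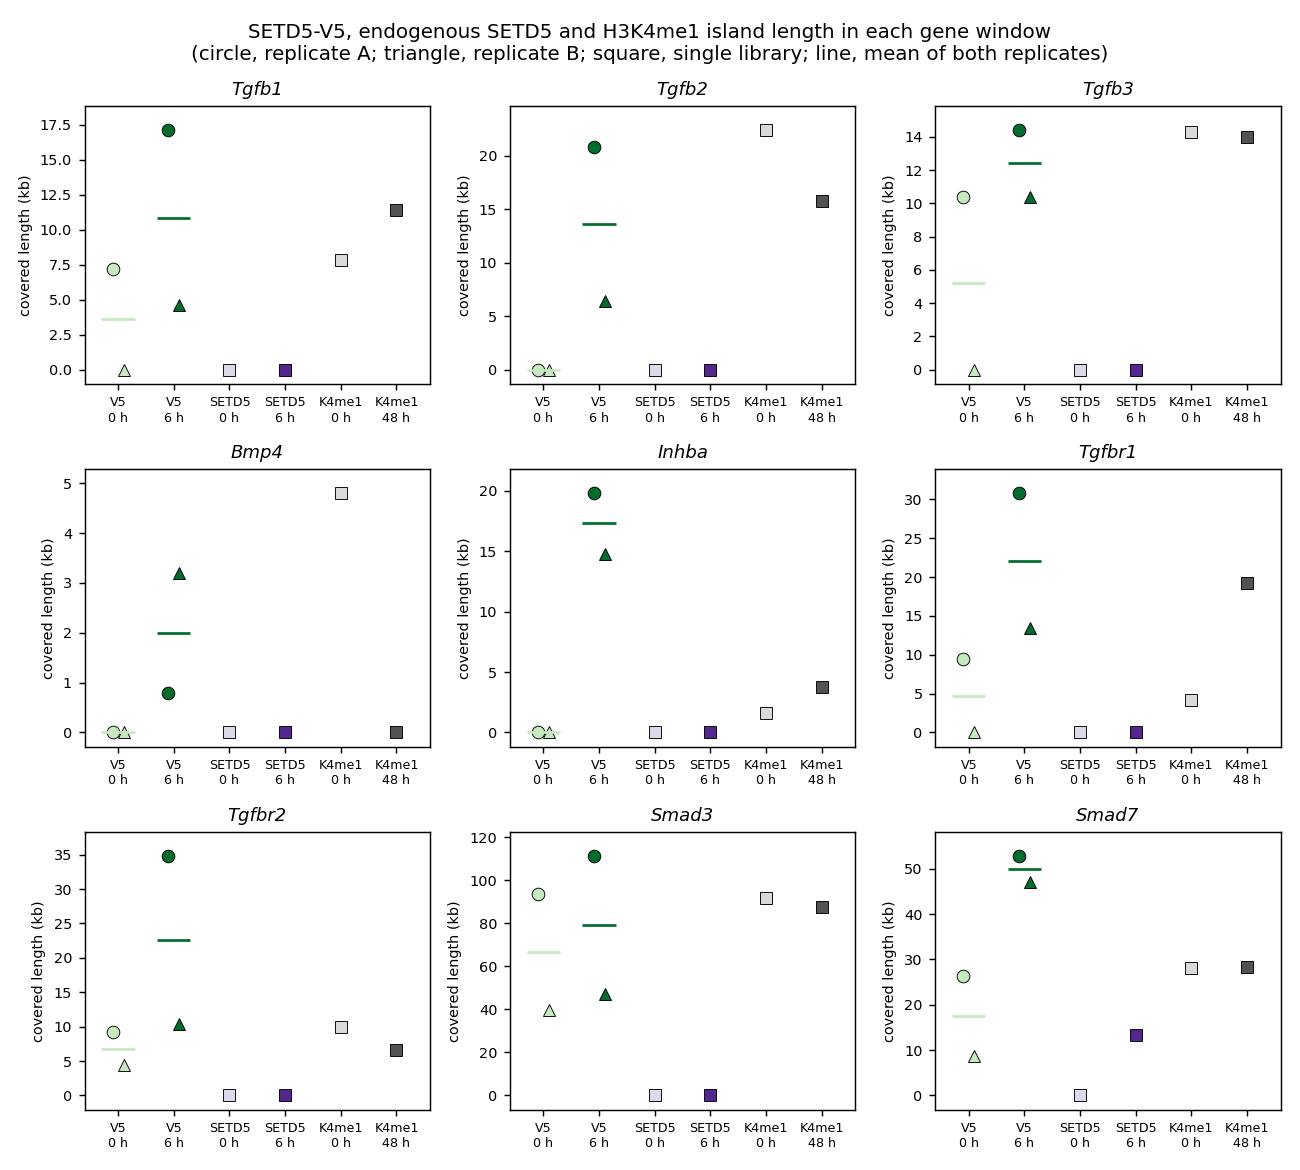
Covered length (kb, vertical axis) of SETD5-V5 (V5), endogenous SETD5 (SETD5) and H3K4me1 (K4me1) islands in the window of each of the 9 genes, by time, with each library as a point. SETD5-V5 is higher at 6 h than at 0 h at every gene for libraries of the same letter, and endogenous SETD5 is above 0 only at Smad7 at 6 h.

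Over the 9 windows together, 23.8% of the H3K27ac length shared by both empty vector libraries at 48 h was gained since 0 h (37.4 of 157.4 kb), against 29.6% in the genome. Of this gain, 27.8% was absent from both SETD5 48 h libraries (30.8% in the genome), 32.6% carried SETD5-V5 in both 6 h libraries (36.5%) and 42.2% carried H3K4me1 at 0 h (27.4%). With the A libraries alone, without replicate B, 53.5% of the gain was absent with SETD5 and 68.2% carried SETD5-V5, and the shares in the genome were not computed under that setting. Of the 0 h length, 22.1% was lost (28%), and 25% of the loss was kept in both SETD5 48 h libraries (16.3%). Smad3 made up 20.8 of the 37.4 kb gained and Tgfb3 10.6 of the 32.0 kb lost, so these shares weigh a few windows heavily and are descriptions with no test. The share with H3K4me1 at 0 h was largely that of Smad3 (10.0 of 15.8 kb), and the share kept with SETD5 largely that of Tgfb3 (5.6 of 8.0 kb).

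Beyond the 9 genes, 55 other genes of the pathway were examined, of which 50 had an H3K27ac island and were tested. In empty vector cells 15 were higher at 48 h and 3 lower, against 22.3% and 12.8% of all genes. In SETD5 cells 10 were higher and 7 lower, against 13.6% and 11%. The median log2 change of the list in empty vector cells was 0.17, near the 0.12 of all genes tested. These sublists are small, and nothing particular to them is read from their counts. With flanks of 50 kb, windows of neighbouring genes can overlap, so the same island may count for several genes. In empty vector cells, receptors rose in 5 of 11 with none lower, inhibitors in 3 of 11 with 1 lower, ligands in 2 of 9 with none lower and signal transducers in 2 of 5 with 1 lower. Of the matrix proteins that store TGF-β 2 of 6 rose, and of the response genes 1 of 8 rose and 1 fell. In SETD5 cells 2 receptors rose and 1 fell, 2 inhibitors rose and 2 fell, 3 ligands rose and 1 fell, 1 signal transducer rose and 1 fell, 2 of the storage proteins rose, and 2 response genes fell. These counts include genes that entered the fit through 1 group, time or vector alone and are no support for a difference: Acvr1c and Bambi with the empty vector, and Bambi, Bmp7, Bmpr1b and Ctgf in SETD5 cells, the last 3 named after their values were seen.

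Among receptors, Acvrl1, a type I receptor known from endothelium, rose from 22.0 and 15.4 kb to 62.2 and 51.2 kb in empty vector cells (log2 change 1.56, SE 0.19, adjusted p = 0.00129). It also rose in SETD5 cells, from 22.8 and 21.8 kb to 40.4 and 39.6 kb (limma log2 change 0.81, adjusted p = 0.0229). Acvr1c, the nodal and activin receptor ALK7 that is known from adipocytes, was listed at 0 kb in both libraries of every H3K27ac group except empty vector at 48 h, where it covered 2.7 and 1.4 kb. It entered the fit through that group alone, so no test is given. Among ligands, Gdf5 rose in both vectors, from 3.4 and 3.2 kb to 9.6 and 8.4 kb in empty vector cells (log2 change 1.22, adjusted p = 0.000821) and by 1.21 in SETD5 cells (adjusted p = 0.00136).

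Inhibitors moved in both directions. Bambi, a pseudoreceptor that dampens TGF-β signalling, was listed at 0 kb in all 0 h libraries and covered 4.8 and 3.2 kb at 48 h with the empty vector and 2.4 and 3.0 kb with SETD5. It entered the fit through the 48 h libraries alone, so no test is given. Smad6, the inhibitory SMAD of the BMP branch, fell from 70.6 and 56.8 kb to 36.6 and 30.2 kb in empty vector cells (log2 change -0.91, adjusted p = 0.0146). It also fell in SETD5 cells, from 58.8 and 70.0 kb to 41.2 and 30.8 kb (-0.83, adjusted p = 0.0275), a call lost without either SETD5 0 h library (0.0741 and 0.147) or SETD5 48 h replicate B (0.148). Smad1, a transducer of BMP signals, fell from 14.4 and 9.2 kb to 4.6 kb in both libraries of empty vector cells (log2 change -1.16, adjusted p = 0.0177), and its change in SETD5 cells did not pass (-0.55, adjusted p = 0.204). In empty vector cells the Smad6 call was lost without empty vector 0 h replicate A (adjusted p = 0.0825) or 48 h replicate B (0.08), and the Smad1 call without either of these (0.1 and 0.0821) or without empty vector 48 h replicate A (0.0886). Tgif1, a repressor of SMAD-driven transcription, fell in both vectors, by 0.74 with the empty vector and by 1.33 with SETD5 on the log2 scale (adjusted p = 0.00652 and 0.00108).

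Between vectors at 48 h, 5 of the 50 genes were higher with SETD5 and 4 lower, near the 5.83% and 6.27% of all genes. The 5 include Bmp7, with 0.8 and 1.4 kb in the SETD5 48 h libraries and 0 kb in the other 6, and the 4 include Acvr1c. Each entered the fit through 1 group alone. Of the 6 genes for matrix proteins that store latent TGF-β, 3 were higher and none lower, and the other 3 did not pass (log2 difference -0.23 for Ltbp2, -0.12 for Ltbp3 and 0.18 for Ltbp4). Ltbp1, which tethers latent TGF-β, covered 105.0 and 110.2 kb with SETD5 against 52.2 and 43.2 kb with the empty vector (log2 difference 1.16, SE 0.184, adjusted p = 0.013). Fbn1 covered 138.8 and 145.6 kb against 83.6 and 77.4 kb (0.81, adjusted p = 0.0364), and Fbn2 covered 10.0 kb in both against 4.8 and 6.2 kb (0.77, adjusted p = 0.0318). Pmepa1, a TGF-β target that limits the signal, was higher as well, with 26.0 and 26.4 kb against 10.2 and 9.2 kb (1.35, adjusted p = 0.0208). Smurf1, a ubiquitin ligase that acts on SMADs and receptors of the pathway, was lower with 13.0 and 12.8 kb against 20.4 and 21.4 kb (-0.66, adjusted p = 0.0173). By the number of islands, Smurf1 was not lower (log2 difference 0.13, adjusted p = 0.714). These groups did not overlap, but each of the 5 calls was lost without SETD5 48 h replicate A (adjusted p = 0.0796 for Ltbp1, 0.143 for Fbn1, 0.137 for Fbn2, 0.122 for Pmepa1 and 0.0652 for Smurf1) and without replicate B. Without empty vector 48 h replicate A all of these 5 but Ltbp1 were lost (adjusted p = 0.0533 for Smurf1 to 0.134 for Fbn2), and without its replicate B all but Fbn2 and Smurf1 (0.0566 for Ltbp1 to 0.124 for Fbn1). Fbn1 and Fbn2 were also lost without either SETD5 0 h library (0.0646 to 0.0695), and Fbn1, Fbn2 and Pmepa1 with equal numbers of islands (0.079 to 0.11) and with no filter (0.0706 to 0.0875). Before induction 3 of the 50 were higher with SETD5 (1.25% of all genes), among them Bmp6 with 26.2 and 28.0 kb against 11 and 9.6 kb (1.32, adjusted p = 0.0189), and none was lower. The other 2, Bmpr1b and Ctgf, had H3K27ac islands in SETD5 libraries only and entered the fit through them. The Bmp6 call was lost without any 1 of the 4 libraries compared (adjusted p = 0.0802 to 0.136) or without SETD5 48 h replicate A (0.0507).

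For comparison, 3 adipogenic genes were measured in the same way, Cebpa and Pparg, on which the study centres, and Fabp4. Fabp4, the fatty acid carrier of adipocytes, rose from 2.6 and 2.8 kb to 29.1 and 23.0 kb in empty vector cells (log2 change 2.86, SE 0.154, adjusted p = 9.68e-05). In SETD5 cells it rose from 6.0 and 5.4 kb to 9.8 and 11 kb (0.77, adjusted p = 0.0132, lost without SETD5 replicate B at 0 h or at 48 h at 0.0729 and 0.0788). The difference of the time effects passed (-2.09, adjusted p = 0.00871). Cebpa, a master transcription factor of adipogenesis, rose from 19.1 and 20.7 kb to 55.3 and 49.1 kb with the empty vector. With SETD5 it covered 13.4 and 14.7 kb and then 17.9 and 14.3 kb (difference -1.17, adjusted p = 0.0415, lost in each of the 8 fits without 1 library at 0.061 to 0.14). Pparg rose from 127.6 and 99.4 kb to 181.4 and 165.4 kb in empty vector cells (0.62, adjusted p = 0.0305), and neither its change in SETD5 cells (0.29, adjusted p = 0.269) nor the difference of the time effects (-0.32, adjusted p = 0.525) passed. The empty vector call was lost without either 48 h empty vector library (0.128 and 0.0715), empty vector 0 h replicate B (0.12) or either SETD5 48 h library (0.0554 and 0.0545). For the 9 pathway genes the same difference ranged from -0.54 (Tgfbr2) to 1.22 (Tgfb3), with a median of -0.14 beside -0.12 for all genes tested.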

How the data were processed

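ChIP-seq islands of 16 libraries from 3T3-L1 preadipocytes were used. Per the study's methods, the authors used Bowtie2 or ELAND to place the first 36 bp of the reads on mm9, then ran SICER or SICER2 on every library by itself (window 200 bp, gap 400 bp for H3K27ac and 600 bp for SETD5, E-value 100). For H3K4me1 it was SICER2 with the H3K27ac gap. Where the study counts islands by both versions (the A libraries and endogenous SETD5), the deposited lists have the SICER2 numbers; for the B libraries the version is not given in the sources used here. The submitters' processing notes also name deepTools. Each deposited list gives chromosome, start, end and a score, which is the caller's score and was used only to rank islands within a list. The lists carry no read counts. The study states total reads per library, which were not used here; without reads per island no counting error can be given, and a weakly marked stretch may be missing from a shallow list.

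Gene windows (GENCODE vM1 annotation of mm9, gene body plus 50 kb on either side) were computed for 22350 protein-coding genes, and the covered length of each was tested with limma 3.58.1 in R 4.3.3 on log2(length + 1000 bp), in 1 fit over the 8 H3K27ac libraries and 1 over the 4 SETD5-V5 libraries, with no covariate. Log2 changes are on that scale and understate the change of short lengths. Genes entered where at least 1 library of the fit had an island, and p-values were adjusted over all of them. The study calls its replicates biological; p-values measure the spread between these libraries only. On the 200 bp grid, a stretch was gained where the A and B lists of empty vector cells covered it at 48 h and not at 0 h, and lost in the opposite case. Places and distances were read from the annotation, with a start meaning within 1 kb of any annotated start and distances counted from the outermost 5′ end. Sequences came from the mm9 genome (NCBIM37), read with pysam 0.24.0. Scripts were tested on simulated data.

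The 9 genes, the 55 further pathway genes, the 3 adipogenic genes and the markers were chosen with earlier results of these data known. Of the pathway list, at most 5 called genes per direction and comparison, by adjusted p, could be named; for each of the 9 genes, the longest gained, lost and SETD5-V5 stretches. The alternatives were equal numbers of islands per list, islands above the median score, 10 kb flanks, the gene body alone, pseudocounts of 200 and 5000 bp, no filter, numbers of islands, lengths scaled to the total covered length, the replicate letter as a block, each library left out, and islands widened by 1000 bp for the shares. Across genes, the deviations of same-letter libraries from their group means correlated at -0.039 to 0.114 between groups. This correlation cannot show a shift shared by all genes, so it is not known whether the letters pair the libraries. V5 list A covered more than list B at both times (85.6 against 35.3 Mb at 0 h, 196.1 against 147.9 Mb at 6 h).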

Additional observations from a re-analysis of the deposited data

Results flagged for a closer look

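The time effect of H3K27ac length differed between SETD5 and empty vector cells, by the limma test of the difference itself, at Fabp4 and Cebpa, neither of them among the 9. The log2 difference was -2.09 for Fabp4 (adjusted p = 0.00871), which was called in all 8 fits without 1 library. It was -1.17 for Cebpa (adjusted p = 0.0415), whose call was lost in each of the 8 such fits (0.061 to 0.14). The same difference was -1.58 for Acvr1c, with 2.7 and 1.4 kb in empty vector cells at 48 h and 0 kb in the other 6 H3K27ac libraries. It was -1.76 for Ctgf, a matrix protein gene induced by TGF-β, with 1.6 and 3.4 kb in SETD5 libraries at 0 h and 0 kb in the other 6. Each of these entered the fit through that 1 group alone and its value depends on the pseudocount, so both are descriptions with no test.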

How the results depend on the processing

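The lists cannot show changes in signal within an island, and with 2 libraries in a group a change of moderate size may be missed. Among the 9 windows, the calls in empty vector cells held in every fit without 1 library. Those in SETD5 cells and between vectors did not all hold. Beyond the 9, the empty vector calls of Pparg, Smad6 and Smad1 were each lost in some of these fits. Of the 9 windows, 5 were called between 0 h and 48 h with the empty vector, but 3 with islands above the median score, 2 with the gene body alone and 1 with numbers of islands. In SETD5 cells 4 were called, but 1 with the gene body alone and 1 with numbers of islands; without 1 library the count ranged from 1 to 6, being 2 without SETD5 48 h replicate A and 1 without each of the other 3 SETD5 libraries. Between vectors at 0 h no window was called, but 1 with islands above the median score. At 48 h 1 was called, but 0 with islands above the median score, 10 kb flanks or the gene body alone, and 0 or 1 without 1 library; the 1 was Tgfb3 except without SETD5 48 h replicate A, where Tgfb3 was lost and Bmp4 called (adjusted p = 0.0356). For the difference of the time effects 0 were called, but 1 with islands above the median score or with scaling to total covered length, and 0 or 1 without 1 library, the 1 being Tgfb3 without empty vector 48 h replicate A. For SETD5-V5 0 were called, but 1 with equal numbers of islands, islands above the median score, no filter or scaling. The count was 2 with the gene body alone, a pseudocount of 200 bp or numbers of islands. All of these calls were of Inhba, Tgfb2 or Bmp4, which were listed at 0 kb in both 0 h libraries. They are therefore no test of a change. The cause of these changes was not tested.

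With the replicate letter as a block, 6 windows were called with the empty vector (Tgfb2 was added, adjusted p = 0.02) and 3 in SETD5 cells (Tgfb1 was lost, 0.054), and no other count of the 9 moved. The block moved the difference of the time effects over all genes from 637 to 329 calls.

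The gained share of 23.8% was 25% with equal numbers of islands, 24.3% with islands above the median score, 24.4% with 10 kb flanks, 14.7% with islands widened by 1000 bp and 36.3% with either replicate letter alone. The share of the gain absent with SETD5 (27.8%) ranged from 34.9% to 53.5% with 1 replicate letter left out, and was 15.3% with islands above the median score. The share with SETD5-V5 (32.6%) ranged from 25.3% to 68.2% with 1 letter left out, and was 19.3% with equal numbers of islands and 49.3% with islands above the median score. The share with H3K4me1 at 0 h (42.2%) was 45.2% with equal numbers of islands, 38.7% above the median score, 36.1% with 10 kb flanks and 53.4% with widened islands, and 40.1% to 40.8% with 1 letter left out.

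Directions turned for Tgfb3 with the gene body alone (0.062 with the empty vector and 0.23 in SETD5 cells), with numbers of islands in SETD5 cells (0.24) and with 10 kb flanks for the difference (-0.03). They also turned for Pparg with numbers of islands (-0.09), Smurf1 in SETD5 cells with islands above the median score (0.23) and between vectors with numbers of islands (0.13), Gdf11 between vectors with 10 kb flanks (0.091) and the gene body (0.017), and Cebpa for the difference with the gene body (0.75). Over all alternatives of the named genes, 775 values kept direction and side of the threshold, 233 lost and 26 gained the call, and 10 turned.

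Over all genes, the empty vector count of 6390 calls fell to 4046 with 10 kb flanks, 2897 with the gene body and 3381 with numbers of islands, and the SETD5 count of 4493 to 2972, 2080 and 2936. Without 1 library the SETD5 count ranged from 2317 to 4399. Between vectors, 374 calls at 0 h became 865 with islands above the median score, 773 with numbers of islands, 685 with scaling and 197 with no filter (156 to 265 without 1 library), and 2203 at 48 h became 1346 with 10 kb flanks, 1006 with the gene body and 1185 with no filter (575 to 1911). The 637 calls of the difference became 1405, 1464, 1152 and 367 under those first 4 settings (198 to 574). For SETD5-V5 the count of 0 became 865 with equal numbers of islands, 1462 with islands above the median score, 1254 with the gene body, 2686 with a pseudocount of 200 bp, 1469 with no filter, 1882 with numbers of islands, 618 with scaling, 3257 without 6 h replicate A and 5684 without 6 h replicate B, where the lone library is assumed to vary like the others.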
